A study of Mus musculus with 26 samples.

Results

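Nuclei of neurons were set against nuclei of astrocytes, both sorted from whole mouse brain, in 8 of the 26 libraries of the series. The libraries were chosen by their titles: 4 of sorted neuron nuclei and 4 of sorted astrocyte nuclei. Neuron nuclei came from mice with the transgene Tg(Snap25-EGfp/Rpl10a)JD362Htz in a B6.FVB strain, in which a fusion of green fluorescent protein (GFP) and the ribosomal protein Rpl10a is driven by Snap25, a gene of neuronal vesicle fusion. Astrocyte nuclei came from mice with Tg(Aldh1L1-EGfp/Rpl10a)JD130Htz, also in a B6.FVB strain, in which the same fusion is driven by Aldh1l1, an astrocyte gene of folate metabolism. Every mouse of both groups carried a fusion transgene and no group lacked it, so each group holds whatever cells its driver marks anywhere in the brain. All mice were 6 to 12 weeks old, each group had 2 males and 2 females, and each library came from 1 mouse. Presort nuclei, taken from the same 2 lines ahead of sorting, were used as the background.

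Neurons signal by action potentials, which open calcium channels at the terminal and release transmitter from vesicles onto receptors of the next cell. Astrocytes take up transmitter and potassium, line blood vessels with water-permeable endfeet, couple through gap junctions, supply lipids and keep in adulthood several receptors and transcription factors known from neural stem cells. RNA in the nucleus includes transcripts that are still being made or processed, so a nuclear count need not follow the RNA that is translated.

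Values are counts scaled by library total (CPM) and adjusted with TMM factors, given as mean ± SD over 4 libraries, and per-library values always stand in the order of neuron replicates 2, 4, 26 and 28 and astrocyte replicates 6, 8, 30 and 32, the first 2 of each being male. Differences are log2 fold changes, neuron minus astrocyte, ± SE, so that a negative value is higher in astrocyte nuclei. The SE was computed back from the fold change and the F statistic of edgeR's test, so it is no measure separate from the p-value. A gene passed when its Benjamini-Hochberg adjusted p from edgeR's quasi-likelihood test was under 0.05 over all genes tested, and "higher" below is used of genes that passed unless values alone are given. Genes are not compared with each other in CPM, which is not corrected for gene length. Where leaving out 1 library changed whether a gene passed or moved its fold change, or a fold or ratio from few counts, by over 1.5 times, the value without that library closes the paragraph. Of the 356 tested genes named, 91 overlap another annotated gene, among them Gli1, Cdh15, Als2cl, Fxyd3 and Tap1. RNA was amplified with a kit that keeps no strand, so the strand cannot separate such genes. Their counts may hold reads of the partner.

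The neuron libraries held 2394993 to 2654141 counts. Astrocyte replicates 6, 8 and 32 held 2345664 to 3239445, and astrocyte replicate 30 only 134357, with 11136 genes detected against 16407 to 16516 in the other 3. Neuron replicate 2 stood apart from its group in granule cell markers, whose sum was 22957 CPM there, 9193 to 13665 CPM in the other 3 neuron libraries and 1002 to 1264 CPM in the astrocyte libraries. Snap25, on chromosome 2 from 136713453 to 136782428 (GRCm38), stood at 663, 865, 937 and 1292 CPM in the neuron libraries and 57.5, 206, 159 and 124 CPM in the astrocyte libraries. The groups did not overlap, and the difference was 2.80 ± 0.37 (adjusted p = 9.95e-06). Aldh1l1, on chromosome 6 from 90486427 to 90600203, stood at 365, 201, 226 and 199.8 CPM in the astrocyte libraries and 6.90, 5.15, 2.75 and 3.70 CPM in the neuron libraries (-5.73 ± 0.39, adjusted p = 1.12e-08), again with no overlap. Both drivers went with the labels. The GFP entry, which both transgenes share, was at 443 ± 90.3 CPM in neurons against 549 ± 282 CPM in astrocytes and did not pass (adjusted p = 0.465), nor did Rpl10a at 185 ± 22.5 CPM in neurons against 225 ± 37.8 CPM in astrocytes (adjusted p = 0.394), a gene with near-identical copies whose sequence is also in the transgene.

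Neuron and astrocyte nuclei differed in 4539 of 12391 genes tested. By edgeR's quasi-likelihood test, 2080 genes (16.8%) were higher in neuron nuclei and 2459 (19.8%) in astrocyte nuclei, and the median log2 fold change over all genes tested was 0.04. The counts of each gene group below are to be read against these 2 shares. On the neuron side 976 genes (46.9% of those called) exceeded 2 on the log2 scale and 160 (7.69%) exceeded 4, and on the astrocyte side 1334 (54.2%) and 537 (21.8%). The groups did not overlap in 1783 of the 2080 genes and in 1981 of the 2459. These genes were called from the same values, so this is no separate support for the calls. The share without overlap over all genes tested is not given here. Without astrocyte replicate 30 the counts were 2057 and 2637, and without neuron replicate 2 they were 2279 and 2923. In a fit that also held the sorted oligodendrocyte libraries, so that these entered the estimate of the spread, they were 1045 and 1489. With a filter of at least 50 counts in 4 libraries, which left 7036 genes, they were 1394 and 1267. A gene confined to astrocyte nuclei had to reach 50 counts in the shallow astrocyte replicate 30 to stay under that filter. The 2 counts are therefore not to be read against each other.

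**Figure D1:**
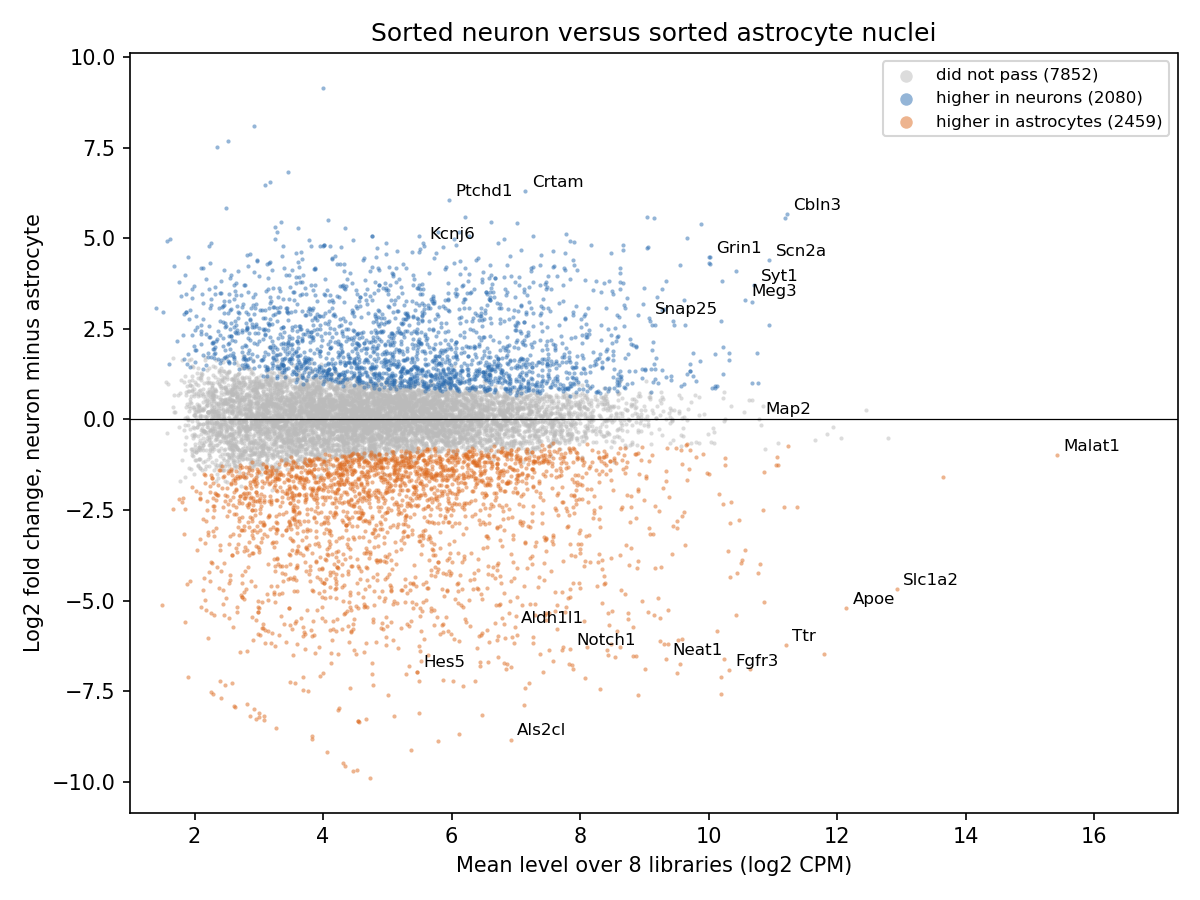
Each point is 1 of the 12391 genes tested. The horizontal axis gives the mean level over the 8 libraries in log2 CPM and the vertical axis the log2 fold change, neuron minus astrocyte. Blue points are the 2080 genes higher in neuron nuclei, orange points the 2459 higher in astrocyte nuclei and grey points the 7852 that did not pass. The points named are among those described in the text.

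The genes with the largest differences toward neurons among those of at least 10 CPM with no overlap between groups were 12 by rule. Cdh15, a cadherin of granule cells and muscle, stood at 73.6, 16.6, 24.0 and 14.1 CPM in the neuron libraries and at 0 counts in every astrocyte library, neuron replicate 2 being well above the other 3. Against a floor of 3 counts over the astrocyte group, it was at least 78.1-fold higher in neuron nuclei. Ntf3, the neurotrophin that acts through Ntrk3, stood at 10.3, 16.9, 12.2 and 21.5 CPM in neurons and 0 counts in astrocytes (at least 37.2-fold). Robo3, an axon guidance receptor, was at least 24.8-fold higher and Rnf133, which lies within Cadps2 so that their counts cannot be separated, at least 27.9-fold. Crtam, an immunoglobulin-domain adhesion molecule, stood at 256, 182, 314 and 373 CPM in the neuron libraries and 2.39, 5.14, 0 and 3.28 CPM in the astrocyte libraries (6.31 ± 0.43, adjusted p = 1.12e-08). Ptchd1, a patched-domain protein linked to intellectual disability, stood at 104, 74.0, 163 and 149.6 CPM in the neuron libraries and 1.44, 3.43, 0 and 0.729 CPM in the astrocyte libraries (6.06 ± 0.51, adjusted p = 7.85e-08). In both, the lowest neuron library was far above the highest astrocyte library. Epha8, an ephrin receptor, had 209 counts over the neuron group against 3 over the astrocyte group (a ratio of 48.2, 95% counting interval 16.3 to 236), and Xkr7 had 117 against 1 (a ratio of 81.0, 95% counting interval 14.3 to 3226). Car4, a membrane carbonic anhydrase, was at 192 ± 63.9 CPM in neurons against 3.49 ± 2.88 CPM in astrocytes (5.44 ± 0.44). The remaining 3 were the granule cell genes Cbln3, Fat2 and Gabra6, described with their list. Ptchd1 stood at a log2 fold change of 6.89 without astrocyte replicate 8. Without neuron replicate 2, Cdh15 was at least 44.4-fold higher and the ratio of Epha8 was 22.7 (95% counting interval 7.46 to 112). Without astrocyte replicate 32, Cdh15 was at least 48.8-fold higher, Ntf3 was at least 23.2-fold higher, Robo3 was at least 15.5-fold higher and Rnf133 was at least 17.4-fold higher. All of these had 0 counts in every astrocyte library, so these bounds moved only with the depth behind the floor. Without the same library, the ratio of Epha8 was 90.4 (95% counting interval 16.1 to 3588) and the ratio of Xkr7 was 50.6 (95% counting interval 8.91 to 2016). Without astrocyte replicate 6, Xkr7 was at least 19.4-fold higher against 0 counts.

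By level among genes with a difference of at least 2 on the log2 scale, Scn2a, Ank3, Syt1, Rtn1, Meg3 and Snhg11 led the neuron side with Cbln3 and Fat2. Scn2a, a voltage-gated sodium channel, stood at 3906, 2666, 3696 and 4832 CPM in the neuron libraries and 150.3, 277, 106 and 158 CPM in the astrocyte libraries (4.41 ± 0.35, adjusted p = 4.57e-08). Ank3, which encodes ankyrin-G, the anchor of sodium channels at the axon initial segment, stood at 3936, 3510.2, 2859 and 3163 CPM in the neuron libraries and 389, 745, 485 and 587 CPM in the astrocyte libraries (2.61 ± 0.28, adjusted p = 1.3e-06). Rtn1, a reticulon of the neuronal endoplasmic reticulum, was at 2964 ± 595 CPM in neurons against 311 ± 50.1 CPM in astrocytes (3.25 ± 0.28). In each of these the 4 neuron libraries lay above all 4 astrocyte libraries.

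Genes of transmitter release were higher in neuron nuclei in most cases. Of 30 tested, 27 were higher in neuron nuclei, 1 in astrocyte nuclei and 2 did not pass (median 1.87, against 0.04 over all genes tested). Sv2b, a vesicle glycoprotein, stood at 926, 714, 989.7 and 1130.5 CPM in the neuron libraries and 55.5, 99.4, 86.3 and 65.6 CPM in the astrocyte libraries (3.64 ± 0.30, adjusted p = 7.59e-08). Syt1, the calcium sensor of fast release, was at 3123 ± 606 CPM in neurons against 235 ± 81.3 CPM in astrocytes (3.71 ± 0.32), and Syp, the vesicle protein synaptophysin, at 1079 ± 473 CPM in neurons against 101 ± 25.9 CPM in astrocytes (3.37 ± 0.34). The active zone scaffold Rims1 (3.78 ± 0.40) and the priming factors Unc13a (1.49 ± 0.29) and Cadps2 (3.76 ± 0.45) were higher as well. The exception was Vamp1, a vesicle SNARE, at 46.7 ± 8.22 CPM in neurons against 82.8 ± 18.9 CPM in astrocytes (-0.87 ± 0.29, adjusted p = 0.0249). Vamp1 did not pass without neuron replicate 4 or 28 or astrocyte replicate 6, 8 or 32 (adjusted p = 0.0525 to 0.102). Rims1 stood at a log2 fold change of 4.52 without astrocyte replicate 8.

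Ion channels of the action potential were mostly on the neuron side, with members on the astrocyte side in the calcium and potassium families. All 8 tested sodium channel genes were higher in neuron nuclei (median 3.17), from Scn8a (1.81 ± 0.28) to Scn2a. The pore subunits Scn1a (3.81 ± 0.33, adjusted p = 1.25e-07) and Scn3a (3.78 ± 0.33, adjusted p = 1.24e-07) had the lowest adjusted p-values after Scn2a. Of 21 calcium channel genes, 13 were higher in neurons and 4 in astrocytes (median 1.68). The pore subunits Cacna1e (3.52 ± 0.32, adjusted p = 1.56e-07) and Cacna1b (3.63 ± 0.37, adjusted p = 5.98e-07), of R-type and N-type channels, were among the former. The latter were the auxiliary subunits Cacng5, Cacng4, Cacng8 and Cacnb1, of which the 3 gamma subunits are known as partners of AMPA receptors. Cacng5 stood at 339, 447, 339 and 683 CPM in the astrocyte libraries and 43.3, 32.4, 25.2 and 31.9 CPM in the neuron libraries (-3.78 ± 0.33, adjusted p = 1.12e-07). Cacng4 was at -1.73 ± 0.36, Cacng8 at -1.61 ± 0.48 and Cacnb1 at -0.94 ± 0.33. Cacna2d2 did not pass, at 113 ± 59.0 CPM in neurons against 148 ± 55.3 CPM in astrocytes. Cacng8 did not pass without astrocyte replicate 32 (adjusted p = 0.131). Cacnb1 did not pass without neuron replicate 4, 26 or 28 or astrocyte replicate 6 or 8 (adjusted p = 0.0586 to 0.104).

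Among 32 potassium and HCN channel genes, 22 were higher in neurons and 3 in astrocytes (median 2.11). Kcnj6, a G protein-gated inward rectifier, stood at 116, 86.5, 83.7 and 80.4 CPM in the neuron libraries and 2.87, 2.14, 0 and 4.38 CPM in the astrocyte libraries (4.88 ± 0.41, adjusted p = 7.37e-08). Its partner Kcnj9 (4.17 ± 0.46) and the axonal channel Kcna1 (3.15 ± 0.31) came next by adjusted p. The M-current subunit Kcnq5 (3.29 ± 0.50) and the fast delayed rectifier Kcnc1 (3.82 ± 0.48) were higher too. The 3 on the astrocyte side were the 3 small-conductance calcium-activated channels of the list. Kcnn2 stood at 439, 772, 378 and 540.0 CPM in the astrocyte libraries and 77.0, 136, 95.9 and 90.0 CPM in the neuron libraries (-2.43 ± 0.30, adjusted p = 5.82e-06), Kcnn3 was at 87.1 ± 13.8 CPM in astrocytes and 14.1 ± 3.60 CPM in neurons (-2.64 ± 0.32) and Kcnn1 at 11.9 ± 3.73 CPM in astrocytes and 3.57 ± 1.62 CPM in neurons (-1.85 ± 0.45). Kcnt1 did not pass, at 333 ± 209 CPM in neurons against 167 ± 85.3 CPM in astrocytes. Kcnt1 passed without neuron replicate 26 or 28 or astrocyte replicate 6 (adjusted p = 0.0109 to 0.0482). Kcnc1 stood at a log2 fold change of 3.04 without neuron replicate 2, Kcnj9 at 4.85 without astrocyte replicate 6, and Kcnq5 at 4.40 without astrocyte replicate 8.

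Receptors for glutamate lay on both sides in each family. In the fit of all 8 libraries their shares toward astrocytes were below the 19.8% over all genes tested. Of 17 ionotropic subunits, 7 (41.2%) were higher in neurons, 3 (17.65%) in astrocytes and 7 did not pass. Their median of -0.02 was close to that of all genes. Without neuron replicate 2 the astrocyte side held 5 of the 18 subunits listed. Over all genes tested in that fit it held 2923 of 12896, so the share was not below that of all genes there. Grin1, the obligate subunit of NMDA receptors, stood at 3656, 1667, 1512 and 1128 CPM in the neuron libraries and 92.9, 82.7, 53.1 and 113 CPM in the astrocyte libraries (4.48 ± 0.40, adjusted p = 1.43e-07). Its partner Grin2a was at 3.71 ± 0.35 (adjusted p = 2.45e-07) and Grin2b at 1.03 ± 0.29. Grik2, a kainate receptor subunit, was at 3.06 ± 0.27 (adjusted p = 1.43e-07), and the AMPA receptor subunit Gria3 at 2.91 ± 0.37. Among those higher in astrocyte nuclei were Grin3a, a modulatory NMDA subunit, at 224, 269, 259 and 249 CPM in the astrocyte libraries and 62.1, 74.4, 94.3 and 78.9 CPM in the neuron libraries (-1.69 ± 0.26, adjusted p = 5.57e-05) and the AMPA subunit Gria1 (-1.05 ± 0.28). Gria1 stood at 1256, 1304, 763 and 1500.4 CPM in the astrocyte libraries and 443, 697, 546 and 657 CPM in the neuron libraries. Gria2 did not pass, at 1084 ± 449.9 CPM in neurons against 682 ± 114 CPM in astrocytes. Gria2 passed without neuron replicate 2 (adjusted p = 0.0121).

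Of the 7 metabotropic receptors tested, 6 (85.7%) were higher in neurons and 1 (14.3%), Grm3, in astrocytes (median 3.79). Grm7, a presynaptic receptor, was at 3.79 ± 0.40. Grm5, often described in young astrocytes, was on the neuron side at 346, 531, 479.9 and 450.0 CPM in the neuron libraries and 48.4, 81.4, 66.4 and 67.8 CPM in the astrocyte libraries (2.77 ± 0.29, adjusted p = 8.06e-07). Grm3, the receptor of adult astrocytes, stood at 544, 806, 451 and 899 CPM in the astrocyte libraries and 88.5, 134, 127 and 163 CPM in the neuron libraries (-2.41 ± 0.30, adjusted p = 6.19e-06). The 2 receptors thus lay on opposite sides, with no overlap of the groups in either.

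Subunits of GABA receptors also lay on both sides. Of 15 tested, 9 (60%) were higher in neurons and 2 (13.3%) in astrocytes (median 2.72). The latter share was below the 19.8% over all genes tested. Gabrd, an extrasynaptic subunit, was at 4.67 ± 0.43 (adjusted p = 2.1e-07). The synaptic subunit Gabrb2 was higher in neurons as well (4.09 ± 0.43). Gabrb1 stood at 193, 282, 206 and 288 CPM in the astrocyte libraries and 22.6, 29.5, 41.7 and 35.9 CPM in the neuron libraries (-2.91 ± 0.30, adjusted p = 8.23e-07) and Gabrg1 at 37.3, 129, 73.0 and 101 CPM in the astrocyte libraries and 5.36, 2.58, 11.4 and 11.5 CPM in the neuron libraries (-3.48 ± 0.48, adjusted p = 1.64e-05), so a beta and a gamma subunit were higher in astrocytes than in neurons. Gabbr1, a subunit of the metabotropic GABA receptor, did not pass, at 679 ± 135 CPM in neurons against 695 ± 137 CPM in astrocytes.

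**Figure D2:**
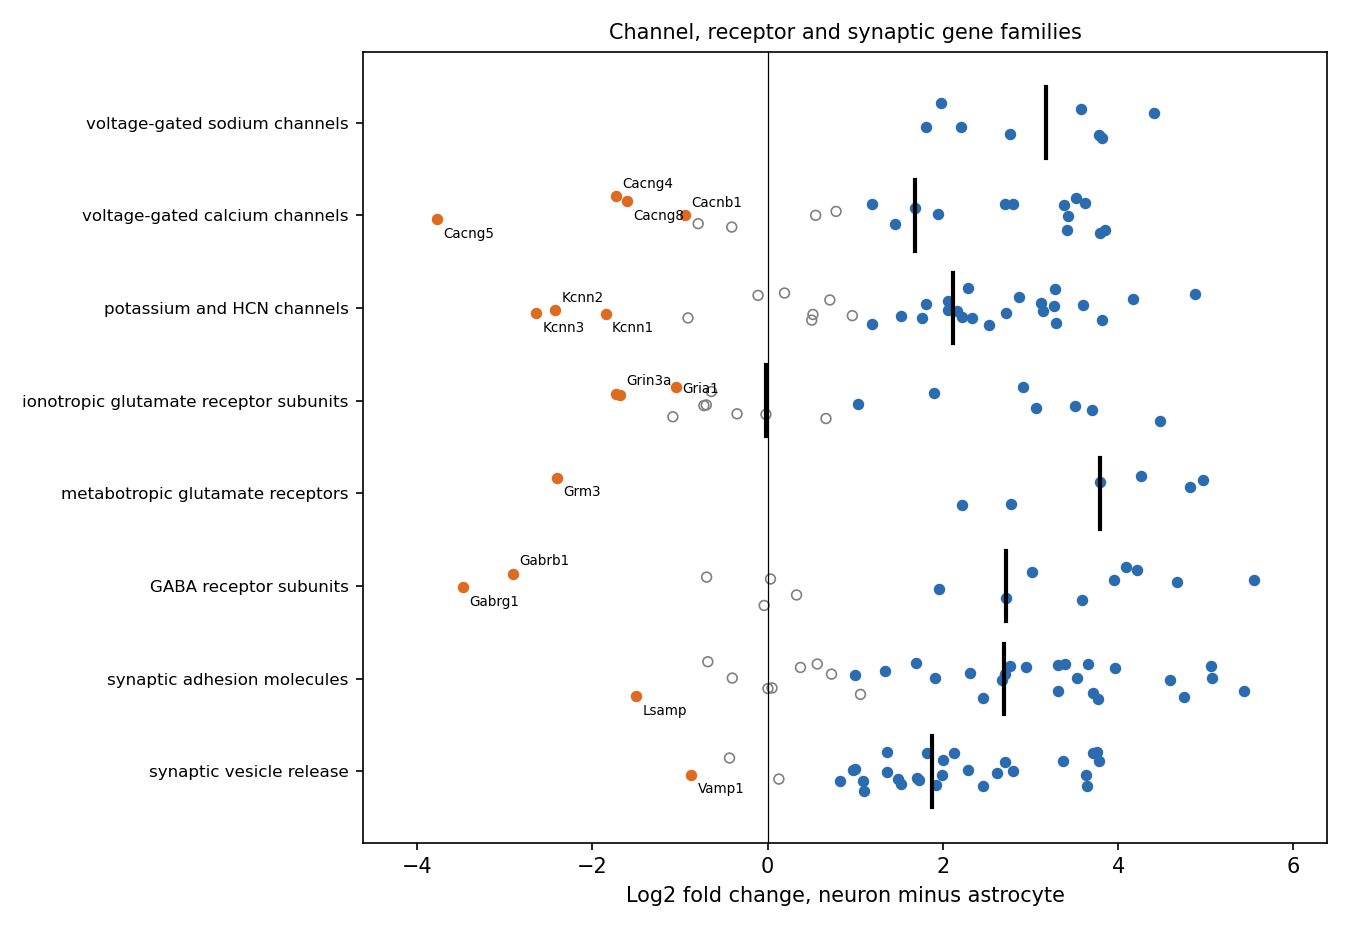
Log2 fold changes, neuron minus astrocyte, of the tested members of 8 gene families. Each dot is 1 gene, filled where it passed and open where it did not, and the vertical bar is the family's median. Members named are among those on the astrocyte side that passed, such as Grm3, Gabrg1, Cacng5 and Kcnn2.

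Adhesion molecules and postsynaptic scaffolds were higher in neurons more often than in astrocytes. For adhesion molecules this held for 23 of 32 (median 2.69), with Cntnap4 (5.08 ± 0.39, adjusted p = 3.38e-08), Lrrtm3 (4.59 ± 0.38) and Csmd3 (3.77 ± 0.33) leading by adjusted p. By size the contactin Cntn6 (5.43 ± 0.52), Cntnap4 and the contactin Cntn5 (5.06 ± 0.54) had the largest differences toward neurons of the list. Lsamp, a cell surface protein of the IgLON family, was the 1 member higher in astrocytes, at 1448, 1729, 1215 and 1660.4 CPM in the astrocyte libraries and 597, 509, 419 and 619 CPM in the neuron libraries (-1.50 ± 0.26, adjusted p = 0.000155). Of 21 scaffold genes, 11 were higher in neurons (median 0.88), among them Lrrc7 (2.94 ± 0.34), Dlgap2 (3.03 ± 0.42) and Dlg2 (2.24 ± 0.32). Iqsec1, an exchange factor for Arf proteins, was at 582 ± 190.1 CPM in astrocytes and 152 ± 81.0 CPM in neurons (-1.94 ± 0.35) and Homer3 at 39.9 ± 13.6 CPM in astrocytes and 17.5 ± 11.3 CPM in neurons (-1.26 ± 0.44), both higher in astrocytes. Dlgap4 did not pass, at 159.6 ± 91.6 CPM in neurons against 166 ± 38.6 CPM in astrocytes. Homer3 did not pass without neuron replicate 26 or 28 or astrocyte replicate 6 or 32 (adjusted p = 0.0656 to 0.138). Cntn5 stood at a log2 fold change of 5.73 without astrocyte replicate 6.

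Axon guidance genes were found on both sides. Of 40 tested, 21 were higher in neurons, 7 in astrocytes and 12 did not pass (median 1.04). Receptors on the neuron side included the ephrin receptor Epha7 (3.52 ± 0.35, adjusted p = 4.77e-07) and the netrin receptor Unc5c (2.61 ± 0.28, adjusted p = 1.09e-06). Ligands on that side included the semaphorins Sema3a (2.29 ± 0.37) and Sema3e (3.57 ± 0.52) and the secreted repellents Slit1 (3.04 ± 0.56) and Slit3 (3.59 ± 0.43). Plxnb1, a semaphorin receptor, stood at 447, 326, 378 and 525 CPM in the astrocyte libraries and 9.20, 1.84, 5.50 and 4.82 CPM in the neuron libraries, all astrocyte libraries being far above the neuron libraries (-6.29 ± 0.42, adjusted p = 1.09e-08). Sema6d, a membrane semaphorin, stood at 4417, 4594, 3578 and 5285 CPM in the astrocyte libraries and 1046, 653, 823 and 831 CPM in the neuron libraries (-2.42 ± 0.27) and Sema4a was at -3.23 ± 0.37. The other 4 on the astrocyte side were Plxnb3 (-2.80 ± 0.60), Nrp1 (-1.58 ± 0.35), Ntng2 (-1.50 ± 0.40) and Neo1 (-1.27 ± 0.26). Sema6a did not pass, at 283 ± 182 CPM in neurons against 233 ± 74.0 CPM in astrocytes. Of 4 tested neurotrophin genes, Ntf3 and Bdnf (77.7 ± 22.4 CPM in neurons against 14.2 ± 1.61 CPM in astrocytes, 2.43 ± 0.34) were higher in neurons and the receptor Ntrk2 in astrocytes, at 1884, 2521, 1347 and 2241 CPM in the astrocyte libraries and 475, 402, 351 and 364 CPM in the neuron libraries (-2.33 ± 0.28, adjusted p = 3.4e-06), whereas Ntrk3 did not pass, at 247 ± 125 CPM in neurons against 181 ± 72.9 CPM in astrocytes. Plxnb3 stood at a log2 fold change of -3.92 without neuron replicate 2.

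Regulators of neuronal identity were higher in neurons in most cases. Among splicing regulators 13 of 16 were higher and none lower (median 2.12). Rbfox3, which encodes the NeuN antigen, stood at 439, 206, 187 and 157 CPM in the neuron libraries and 26.8, 16.3, 13.3 and 15.3 CPM in the astrocyte libraries (3.71 ± 0.40, adjusted p = 1.12e-06). Rbfox1 (2.71 ± 0.32) and Srrm4 (2.78 ± 0.41), a regulator of neuronal microexons, followed, and Nova1 did not pass, at 94.6 ± 47.8 CPM in neurons against 72.0 ± 12.7 CPM in astrocytes. Of 24 transcription factors, 15 were higher in neurons and 3 in astrocytes (median 1.33). Neurod1 was at 4.26 ± 0.44 and Myt1l, a repressor of non-neuronal genes, at 2.13 ± 0.30. Rorb, a nuclear receptor used as a marker of cortical layer neurons, was the opposite, at 416, 339.8, 159 and 277 CPM in the astrocyte libraries and 16.1, 61.5, 48.7 and 41.9 CPM in the neuron libraries (-2.85 ± 0.39, adjusted p = 1.56e-05). Npas2, a clock factor, was also higher in astrocytes (-1.11 ± 0.39). Klf7 did not pass, at 167 ± 27.9 CPM in neurons against 221 ± 46.9 CPM in astrocytes. Immediate early genes, induced by activity, were higher in neurons in 9 of 13 cases (median 2.0), led by Egr1 (2.28 ± 0.38), Npas4 (3.89 ± 0.73) and Egr2 (3.79 ± 0.80), and Dusp1 did not pass, at 44.3 ± 13.2 CPM in neurons against 41.7 ± 19.9 CPM in astrocytes. Npas2 did not pass without neuron replicate 26 or 28 or astrocyte replicate 6 (adjusted p = 0.0840 to 0.265). Egr2 stood at a log2 fold change of 4.73 without astrocyte replicate 32, Neurod1 at 4.85 without astrocyte replicate 8, and Srrm4 at 3.51 without astrocyte replicate 6.

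Many cytoskeletal and transport genes did not pass. Of 27 genes, 12 were higher in neurons, 1 in astrocytes and 14 did not pass (median 0.54). The microtubule-destabilising stathmins Stmn2 (3.43 ± 0.39) and Stmn3 (3.18 ± 0.40) were higher in neurons with Ank3. Kif21b, a kinesin, was higher in astrocytes, at 82.8, 36.9, 86.3 and 78.8 CPM in the astrocyte libraries and 29.9, 27.2, 21.6 and 15.2 CPM in the neuron libraries (-1.56 ± 0.35). Ank2, at 5858 ± 1319 CPM in neurons against 8361 ± 3067 CPM in astrocytes, did not pass. The pan-neuronal markers, 19 of 25 of which were higher in neurons (median 1.86), held another such gene: the dendritic marker Map2, at 1655, 1879, 1777 and 1826 CPM in the neuron libraries and 2068, 2005, 1599.7 and 1330.5 CPM in the astrocyte libraries, with overlapping groups (adjusted p = 0.948). Summed over the list, pan-neuronal markers took 10350.1 to 14652 CPM in neuron libraries and 3217 to 4109 in astrocyte libraries. Transcripts of these genes were thus present on the astrocyte side at a level above 0. Map2, at 1330.5 to 2068 CPM there, was a large part of that sum. Which nuclei they came from cannot be told in such bulk libraries. Nor can fewer nuclei and less RNA per nucleus be told apart.

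Markers of several neuron types were higher in neuron nuclei. Of the markers of cerebellar granule cells, 10 of 13 tested were higher in neurons (median log2 fold change 3.61), and 2 had a log2 fold change below 0. Cbln3, a secreted synaptic organiser of granule cells on chromosome 14 from 55878913 to 55884392, stood at 6429, 2881, 4125 and 5363 CPM in the neuron libraries and 88.6, 92.1, 73.0 and 108 CPM in the astrocyte libraries (5.67 ± 0.35, adjusted p = 5.48e-09). Neuron replicate 2 was the highest and replicate 4 the lowest of the neuron libraries, and the groups did not overlap. Fat2, a giant cadherin of granule cells, stood at 9012, 2535, 3831 and 3018 CPM in the neuron libraries and 98.6, 109.7, 106 and 80.6 CPM in the astrocyte libraries (5.55 ± 0.43, adjusted p = 3.67e-08), and Gabra6, which encodes a subunit of their GABA receptors, at 1012, 576, 1340.3 and 1529 CPM in the neuron libraries and 12.0, 42.4, 33.2 and 13.9 CPM in the astrocyte libraries (5.55 ± 0.48, adjusted p = 1.04e-07). Cbln1, of the same family as Cbln3, was at 5.40 ± 0.41. Grin2c did not pass, at 169 ± 149 CPM in neurons against 353 ± 165 CPM in astrocytes. Grin2c passed toward astrocytes without neuron replicate 2 (adjusted p = 0.000121). Gabra6 stood at a log2 fold change of 6.23 without astrocyte replicate 8.

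Of 11 striatal projection neuron markers, 9 were higher in neurons (median 3.55). Penk, the enkephalin precursor, stood at 323, 502, 360.0 and 469.7 CPM in the neuron libraries and 16.8, 26.6, 19.9 and 28.1 CPM in the astrocyte libraries (4.13 ± 0.32, adjusted p = 3.73e-08). Pde10a (3.02 ± 0.29), Rgs9 (3.61 ± 0.35), the dopamine receptors Drd1 (4.16 ± 0.47) and Drd2 (3.11 ± 0.61) and the tachykinin precursor Tac1 (4.32 ± 0.45) were higher, and Ppp1r1b did not pass, at 82.0 ± 26.4 CPM in neurons against 70.2 ± 30.9 CPM in astrocytes. Of 13 forebrain excitatory markers, 9 were higher in neurons (median 2.10), led by the vesicular glutamate transporter Slc17a7 (4.19 ± 0.48) and Nrn1 (2.81 ± 0.34), and 2, Rorb and Tle4 (-1.40 ± 0.35), in astrocytes. Cux2 did not pass, at 38.5 ± 21.1 CPM in neurons against 30.5 ± 15.6 CPM in astrocytes. GABAergic markers were higher in 8 of 10 cases (median 1.92), including the peptides Sst (2.93 ± 0.39) and Cck (2.67 ± 0.39) and the vesicular GABA transporter Slc32a1 (2.57 ± 0.50), and Erbb4 did not pass, at 181 ± 44.1 CPM in neurons against 133 ± 24.8 CPM in astrocytes. The Dlx genes of that list were below the filter on low counts. Of 7 tested Purkinje cell markers Calb1 (1.64 ± 0.51) and Slc1a6 (1.61 ± 0.55) were higher in neurons and 1 marker in astrocytes, and Itpr1 did not pass, at 309.5 ± 68.2 CPM in neurons against 251 ± 44.3 CPM in astrocytes. The sum of that list was 470.5 to 683 CPM in neuron libraries and 663.8 to 958.5 CPM in astrocyte libraries. Modulatory neuron markers were near 0: their summed level was 17.2 to 38.1 CPM in neuron libraries and 13.3 to 25.9 CPM in astrocyte libraries, with overlap. Of the 13, 1 was tested, Slc18a2 (1.18 ± 0.41). Calb1 did not pass without neuron replicate 28 or astrocyte replicate 6 (adjusted p = 0.0574 to 0.0601). Slc1a6 did not pass without neuron replicate 2 or 4 or astrocyte replicate 6, 8 or 32 (adjusted p = 0.0526 to 0.120). Slc18a2 did not pass without neuron replicate 4, 26 or 28 or astrocyte replicate 8 or 32 (adjusted p = 0.0542 to 0.107). Drd1 stood at a log2 fold change of 5.15 and Drd2 at 4.22 without astrocyte replicate 32, and Slc17a7 at 3.54 without neuron replicate 2.

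Long noncoding RNAs were found on both sides. Meg3, an imprinted transcript, stood at 2606, 3006, 3120.1 and 2226 CPM in the neuron libraries and 369, 221, 398 and 155 CPM in the astrocyte libraries (3.29 ± 0.33, adjusted p = 5.91e-07). Rian (4.32 ± 0.38) and Mirg (4.81 ± 0.43), of the same imprinted cluster, and Snhg11 (4.09 ± 0.39) were higher in neurons as well. Neat1, the scaffold of nuclear paraspeckles, went the other way, at 1147, 1673, 1215 and 1091 CPM in the astrocyte libraries and 19.5, 12.5, 13.8 and 6.30 CPM in the neuron libraries (-6.62 ± 0.39, adjusted p = 4.05e-09). Malat1, a transcript of nuclear speckles, stood at 78769.5, 54461, 45879 and 53707 CPM in the astrocyte libraries and 20342, 32462, 34077 and 30708 CPM in the neuron libraries (-0.99 ± 0.28), and Pvt1 did not pass, at 31.6 ± 16.4 CPM in neurons against 34.1 ± 18.5 CPM in astrocytes. Over the 381 tested genes of long noncoding biotypes, 56 (14.7%) were higher in neurons and 72 (18.9%) in astrocytes, close to the shares over all genes.

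On the astrocyte side, 12 genes led by size under the same rule. Gli1, a transcription factor and target of hedgehog signalling, had 0 counts in every neuron library and stood at 46.4, 40.7, 53.1 and 72.9 CPM in the astrocyte libraries, at least 188-fold higher. Slc2a10, a glucose transporter family member, stood at 50.8, 30.4, 26.6 and 68.2 CPM (at least 155-fold) and Oaf at 31.1, 43.3, 46.5 and 63.1 CPM (at least 162-fold), both with 0 counts in neurons. The same held for Pm20d1, a secreted enzyme that makes N-acyl amino acids (at least 142-fold), the glycerol and water channel Aqp9 (at least 118-fold), the peptide transporter Tap1 of antigen presentation (at least 99.8-fold) and the homeobox factor Six5 (at least 68.1-fold). Als2cl stood at 314, 180.4, 232 and 239.9 CPM in the astrocyte libraries and 0, 0.736, 1.18 and 0 CPM in the neuron libraries (-8.84 ± 0.55, adjusted p = 5.51e-09). Gli2 had 3 counts over the neuron group against 1048 over the astrocyte group (a ratio of 505, 95% counting interval 172 to 2451). With 1 or 2 counts in neurons, Fxyd3, a regulator of the sodium pump, had a ratio of 955, 95% counting interval 171 to 37778. Fkbp10, a collagen chaperone, had a ratio of 706, 95% counting interval 195 to 5836, and Myoc, which encodes myocilin, a ratio of 549, 95% counting interval 97.9 to 21742. Als2cl had the most counts of these 12 over the 4 neuron libraries, 5. Als2cl stood at a log2 fold change of -9.62 without neuron replicate 26. Without neuron replicate 2, the ratio of Gli2 was 1140.3 (95% counting interval 204 to 45081) and the ratio of Fkbp10 was 1063 (95% counting interval 190.3 to 42029). Without neuron replicate 26, Fxyd3 was at least 219.9-fold higher against 0 counts. Without neuron replicate 4, Myoc was at least 123-fold higher against 0 counts.

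By level among genes with a difference of at least 2, Slc1a2, Apoe, Ttr, Sema6d, Atp1b2, Clu and Sparcl1 were among the 8 highest. Slc1a2, the main glutamate transporter of astrocytes, on chromosome 2 from 102658659 to 102790784, stood at 15589.8, 15679, 11489.7 and 17279.9 CPM in the astrocyte libraries and 410.0, 648, 627 and 656 CPM in the neuron libraries (-4.68 ± 0.30, adjusted p = 8.91e-09). Atp1b2, a glial subunit of the sodium pump, stood at 3895 ± 2258 CPM in astrocytes and 733 ± 493 CPM in neurons (-2.41 ± 0.44, adjusted p = 0.000285). Sparcl1, a secreted protein that promotes synapse formation, was at 3299 ± 1309 CPM in astrocytes and 176 ± 43.8 CPM in neurons (-4.23 ± 0.35). Ttr, the thyroid hormone carrier made by choroid plexus epithelium, stood at 473, 5017, 6053 and 7093 CPM in the astrocyte libraries and 55.9, 72.9, 36.6 and 83.7 CPM in the neuron libraries (-6.22 ± 0.65, adjusted p = 8.08e-07). Astrocyte replicate 6 was far below the other 3 in Ttr, yet above all neuron libraries.

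**Figure D3:**
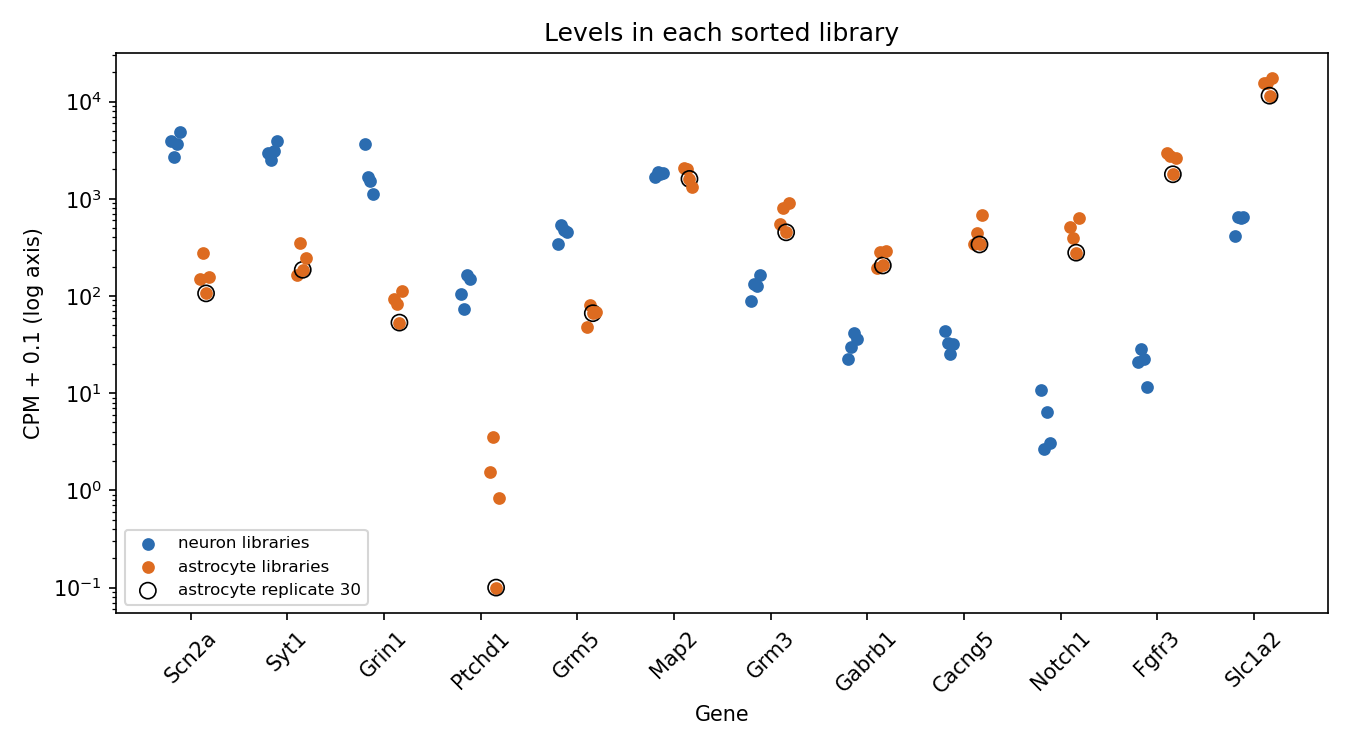
Levels of 12 genes in each of the 8 libraries, in CPM plus 0.1 on a log axis. Blue dots are the 4 neuron libraries and orange dots the 4 astrocyte libraries, and the ring marks astrocyte replicate 30, the shallow library. In each of the 12 genes but Map2 the groups do not overlap.

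All 27 astrocyte markers were higher in astrocyte nuclei (median -5.57), among them the secreted protein Itih3 (-7.44 ± 0.37) and Fgfr3. Genes that clear or make transmitters were higher in astrocytes in 16 of 21 cases and lower in none (median -3.37). For glutamate, Slc1a3, the partner of Slc1a2, stood at 1691, 2661, 1653 and 2832 CPM in the astrocyte libraries and 43.7, 40.1, 24.4 and 47.4 CPM in the neuron libraries (-5.83 ± 0.35, adjusted p = 5.45e-09), and Glul, which turns glutamate into glutamine, was at -2.82 ± 0.32. For GABA, the transporter Slc6a11 (2385, 1821, 1619.6 and 3519 CPM in the astrocyte libraries and 31.8, 19.5, 8.65 and 7.41 CPM in the neuron libraries, -7.11 ± 0.51) was higher in every astrocyte library than in any neuron library. Glycine and serine handling was represented by the transporters Slc6a9 (-5.26 ± 0.50) and Slc7a10 (-6.38 ± 0.36, adjusted p = 2.82e-09), the glycine cleavage enzyme Gldc (-4.21 ± 0.49) and Phgdh, the first enzyme of serine synthesis (-3.36 ± 0.47). Srr, serine racemase, did not pass, at 231 ± 56.1 CPM in neurons against 188 ± 20.9 CPM in astrocytes.

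Endfoot and potassium-buffering genes were higher in astrocytes in 16 of 17 cases (median -2.54). The water channel Aqp4 stood at 811, 1371, 1016 and 1535 CPM in the astrocyte libraries and 19.5, 14.0, 29.9 and 41.9 CPM in the neuron libraries (-5.49 ± 0.40, adjusted p = 1.88e-08) and the potassium channel Kcnj10 at 793, 1041, 809.8 and 1776 CPM in the astrocyte libraries and 31.4, 24.3, 18.1 and 30.7 CPM in the neuron libraries (-5.40 ± 0.37, adjusted p = 1.12e-08). Hepacam (-6.56 ± 0.44) and Mlc1 (-5.34 ± 0.40), 2 genes of a leukodystrophy of the endfoot membrane, were higher too. Components of the dystroglycan anchor had smaller differences: Dag1 (-2.54 ± 0.33), Dtna (-2.40 ± 0.28), Utrn (-1.84 ± 0.28) and Dmd (-1.39 ± 0.31). Slc12a2, a chloride cotransporter, did not pass, at 61.7 ± 15.1 CPM in neurons against 48.0 ± 21.1 CPM in astrocytes. Of 5 tested connexins, 4 were higher in astrocytes: Gja1 (-6.06 ± 0.45, adjusted p = 2.24e-08), Gjb6 (-6.53 ± 0.53), Gjc3 (-4.71 ± 0.43) and Gjb2 (-4.73 ± 0.54). Gjd2, the connexin of electrical synapses between neurons, was the 1 higher in neurons, at 5.36, 5.15, 4.72 and 4.44 CPM in the neuron libraries and 0, 0.429, 0 and 1.09 CPM in the astrocyte libraries (3.08 ± 0.70, adjusted p = 0.00195). Gjb2 stood at a log2 fold change of -5.61 without neuron replicate 26, and Gjd2 at 4.18 without astrocyte replicate 32.

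Receptors through which astrocytes sense transmitters and blood-borne signals were higher in astrocytes in 17 of 21 cases (median -3.08), Grm5 being the 1 higher in neurons. The neurotensin receptor Ntsr2 stood at 1151, 1217, 863 and 1753 CPM in the astrocyte libraries and 19.5, 20.6, 14.5 and 13.3 CPM in the neuron libraries (-6.20 ± 0.35, adjusted p = 2.82e-09). The sphingosine phosphate receptor S1pr1 (-6.10 ± 0.39) and the endothelin receptor Ednrb (-6.11 ± 0.40) were next by adjusted p. The adrenergic receptors Adra1a (-3.32 ± 0.35), Adra1b (-2.74 ± 0.52) and Adra2a (-3.56 ± 0.40), the histamine receptor Hrh1 (-4.54 ± 0.38), the adenosine receptor Adora2b (-6.32 ± 0.64) and the purine receptor P2ry1 (-1.93 ± 0.44) were all on the astrocyte side. Adora2b stood at a log2 fold change of -7.35 without neuron replicate 28.

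Notch signalling passes between neighbouring cells: a ligand on a cell triggers cleavage of the Notch receptor of its neighbour, whose inner part acts with Rbpj on target genes such as the Hes and Hey repressors. Of 18 tested members, 10 were higher in astrocytes, 1 in neurons and 7 did not pass (median -2.30). Among receptors, Notch1 stood at 509.9, 396, 279 and 638 CPM in the astrocyte libraries and 10.7, 2.58, 6.29 and 2.96 CPM in the neuron libraries (-6.35 ± 0.46, adjusted p = 2.1e-08), Notch2 at 452, 414, 279 and 637 CPM in the astrocyte libraries and 23.8, 14.7, 16.9 and 5.19 CPM in the neuron libraries (-4.89 ± 0.42, adjusted p = 1.13e-07) and Notch3 at 32.9 ± 13.2 CPM in astrocytes and 1.63 ± 1.61 CPM in neurons (-4.30 ± 0.63). Every astrocyte library was above every neuron library for each. Lfng, a glycosyltransferase that modifies Notch receptors, stood at 83.3, 151, 99.6 and 245 CPM in the astrocyte libraries and 2.68, 0, 0.393 and 0.370 CPM in the neuron libraries (-7.35 ± 0.63, adjusted p = 1.05e-07). The ligand Jag1 was at -3.04 ± 0.52, and the ligands Dll1, Dll3, Dll4 and Jag2 were below the filter on low counts. Among targets, Hes5 stood at 46.4, 98.1, 66.4 and 138 CPM in the astrocyte libraries and 2.30, 0.368, 0 and 0 CPM in the neuron libraries (-6.96 ± 0.67, adjusted p = 3.38e-07), Nrarp was at -5.78 ± 0.54 and Hey2 at -3.26 ± 0.61. Heyl had 1 count over the neuron group against 170 over the astrocyte group (a ratio of 246, 95% counting interval 43.5 to 9758). The other Hes and Hey genes of the list, Hes1, Hes6 and Hey1, were not among the members that passed. Rbpj itself did not pass, at 42.4 ± 8.82 CPM in neurons against 39.0 ± 9.42 CPM in astrocytes, nor did Numb, an inhibitor of Notch, at 98.4 ± 44.9 CPM in neurons against 116 ± 65.3 CPM in astrocytes. Maml2, a coactivator, was higher in astrocytes (-1.56 ± 0.27) and its relative Maml3 in neurons (1.41 ± 0.35). Hes5 stood at a log2 fold change of -8.94, Lfng at -8.91 and Notch3 at -5.13 without neuron replicate 2, Hey2 at -4.42 without neuron replicate 4, and Nrarp at -6.50 without neuron replicate 26. Without neuron replicate 2, Heyl was at least 59.0-fold higher against 0 counts.

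The promoters of Hes5 and Lfng, a target and a modifier of the pathway whose groups lay far apart, are printed to show the letters that Rbpj is known to bind; Lfng was chosen after its values were seen. Each is the 250 bases before the start of the gene, 5′ to 3′ on the + strand, from RefSeq on GRCm38.p6. Capitals mark the RBPJ core, TGGGAA, or the same core on the other strand, TTCCCA.
Hes5, chr4:154960673-154960922: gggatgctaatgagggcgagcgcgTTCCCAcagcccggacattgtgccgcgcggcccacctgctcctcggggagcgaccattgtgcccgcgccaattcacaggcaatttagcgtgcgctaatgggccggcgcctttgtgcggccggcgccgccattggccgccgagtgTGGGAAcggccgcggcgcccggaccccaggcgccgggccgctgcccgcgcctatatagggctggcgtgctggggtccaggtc
Lfng, chr5:140607091-140607340: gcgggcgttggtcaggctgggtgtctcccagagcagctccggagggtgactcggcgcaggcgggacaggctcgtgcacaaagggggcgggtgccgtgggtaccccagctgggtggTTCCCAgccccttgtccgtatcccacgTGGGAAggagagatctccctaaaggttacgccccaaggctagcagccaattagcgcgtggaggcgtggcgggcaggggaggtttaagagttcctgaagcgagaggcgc
Both windows hold 1 core on each strand, starting at bases 25 and 169 in Hes5 and at bases 116 and 143 in Lfng, counted from 1 at the 5′ end. This core is short and common: 7094 of 32851 RefSeq windows of this length (21.6%) hold it on either strand, and so do 6 of the 16 tested Notch pathway genes with an entry there. The longer core of the Gli factors, GACCACCC, occurs on either strand in 231 of the 32851 windows (0.703%) and in none of the 11 windows of 10 tested hedgehog pathway genes, Ptch1 included.

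Hedgehog signalling runs from the receptor Ptch1, which holds back Smo, to the Gli transcription factors. Of 13 tested members, 10 were higher in astrocytes and 1 in neurons (median -2.97). Beside Gli1 and Gli2, Gli3 stood at 216, 153, 179 and 172 CPM in the astrocyte libraries and 2.30, 9.57, 5.11 and 11.1 CPM in the neuron libraries (-4.66 ± 0.42, adjusted p = 1.43e-07), Smo at 73.3, 33, 19.9 and 89.3 CPM in the astrocyte libraries and 1.15, 0.368, 4.32 and 0.741 CPM in the neuron libraries (-5.12 ± 0.61) and Ptch1 at 470.2, 294, 312 and 502 CPM in the astrocyte libraries and 94.6, 42.3, 36.2 and 29.3 CPM in the neuron libraries (-2.97 ± 0.38). Gas1, a coreceptor, had 1 count over the neuron group against 177 over the astrocyte group (a ratio of 256, 95% counting interval 45.3 to 10157). The coreceptor Cdon was the exception, at 269, 169, 182 and 231 CPM in the neuron libraries and 46.0, 30.4, 53.1 and 58.3 CPM in the astrocyte libraries (2.21 ± 0.31, adjusted p = 1.89e-05), and the coreceptor Boc did not pass, at 169 ± 103 CPM in neurons against 139 ± 45.5 CPM in astrocytes. The ligands Shh, Ihh and Dhh were below the filter on low counts, with 13 Shh counts over the neuron group and 2 over the astrocyte group. Smo stood at a log2 fold change of -6.15 without neuron replicate 26. Without neuron replicate 26, Gas1 was at least 63.3-fold higher against 0 counts. Without astrocyte replicate 32, the ratio of Gas1 was 132 (95% counting interval 22.7 to 5294).

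Fibroblast growth factor receptors and most tested feedback genes they are known to induce were higher in astrocytes, and 3 Fgf genes were higher in neurons. Of 16 tested, 10 were on the astrocyte side and 3 on the neuron side (median -1.91). Fgfr3 stood at 2922, 2753, 1786 and 2644 CPM in the astrocyte libraries and 20.7, 28.4, 22.4 and 11.5 CPM in the neuron libraries (-6.93 ± 0.38, adjusted p = 2.62e-09), Fgfr2 at 903, 1157, 803 and 1279.8 CPM in the astrocyte libraries and 36, 36.8, 7.86 and 23.7 CPM in the neuron libraries (-5.31 ± 0.43), and Fgfr1 was at -1.93 ± 0.35. The decoy receptor Fgfrl1 was at -6.01 ± 0.51. Feedback and target genes Spry2 (-2.04 ± 0.37), Dusp6 (-1.95 ± 0.42), Etv4 (-4.59 ± 0.57) and Etv5 (-1.37 ± 0.31) were on the same side, and Spred1 did not pass, at 66.3 ± 9.99 CPM in neurons against 102 ± 13.1 CPM in astrocytes. The secreted ligand Fgf9 stood at 31, 24.7, 27.1 and 38.2 CPM in the neuron libraries and 0.958, 6.00, 0 and 1.46 CPM in the astrocyte libraries (3.46 ± 0.54, adjusted p = 5.62e-05), and Fgf1 was higher in astrocytes (-1.88 ± 0.32). Fgf12 (1.49 ± 0.39) and Fgf14 (2.83 ± 0.31), which stay in the cell and bind sodium channels, were higher in neurons. Fgf9 stood at a log2 fold change of 4.65 without astrocyte replicate 8, and Fgfrl1 at -6.63 without neuron replicate 2.

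Bone morphogenetic protein (BMP) and transforming growth factor genes were higher in astrocytes in 14 of 24 cases (median -1.41). They included the receptor Bmpr1b (395, 561, 259 and 530.1 CPM in the astrocyte libraries and 10.3, 21.4, 14.5 and 11.1 CPM in the neuron libraries, -4.94 ± 0.36, adjusted p = 2.28e-08), the ligands Bmp7 (-3.72 ± 0.50), Bmp6 (-4.47 ± 0.66) and Tgfb2 (-3.02 ± 0.40), the receptor Tgfbr2 (-3.72 ± 0.41) and all 4 Id genes, targets of BMP signals, from Id2 (-2.55 ± 0.37) to Id3 (-5.77 ± 0.48, adjusted p = 7.51e-08). Acvr2a, an activin receptor, was the 1 higher in neurons (1.56 ± 0.38), and Smad5 did not pass, at 132 ± 29.7 CPM in neurons against 174 ± 31.7 CPM in astrocytes. Wnt pathway and YAP genes were higher in astrocytes in 21 of 26 cases and lower in none (median -3.51). The receptor Fzd2 stood at 81.9, 165, 46.5 and 223 CPM in the astrocyte libraries and 2.68, 0, 0 and 0.741 CPM in the neuron libraries (-7.22 ± 0.70, adjusted p = 3.88e-07). The growth regulators Wwtr1, which encodes TAZ (151, 71.6, 99.6 and 89.7 CPM in the astrocyte libraries and 3.07, 2.95, 1.57 and 2.96 CPM in the neuron libraries, -5.26 ± 0.40, adjusted p = 3e-08), and Yap1 (144, 102, 66.4 and 106 CPM in the astrocyte libraries and 4.60, 9.57, 5.90 and 4.44 CPM in the neuron libraries, -4.12 ± 0.37, adjusted p = 1.67e-07) did not overlap between groups. Tcf7l1 (-4.76 ± 0.66), Tcf7l2 (-3.30 ± 0.44) and Lef1 (-2.70 ± 0.51), the nuclear effectors, and the ligand Wnt7b (-5.07 ± 0.58) were on the same side. Lrp6, a Wnt coreceptor, did not pass, at 155 ± 20.7 CPM in neurons against 227 ± 55.5 CPM in astrocytes. Fzd2 stood at a log2 fold change of -8.79 without neuron replicate 2, and Tcf7l1 at -5.75 without neuron replicate 4.

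**Figure D4:**
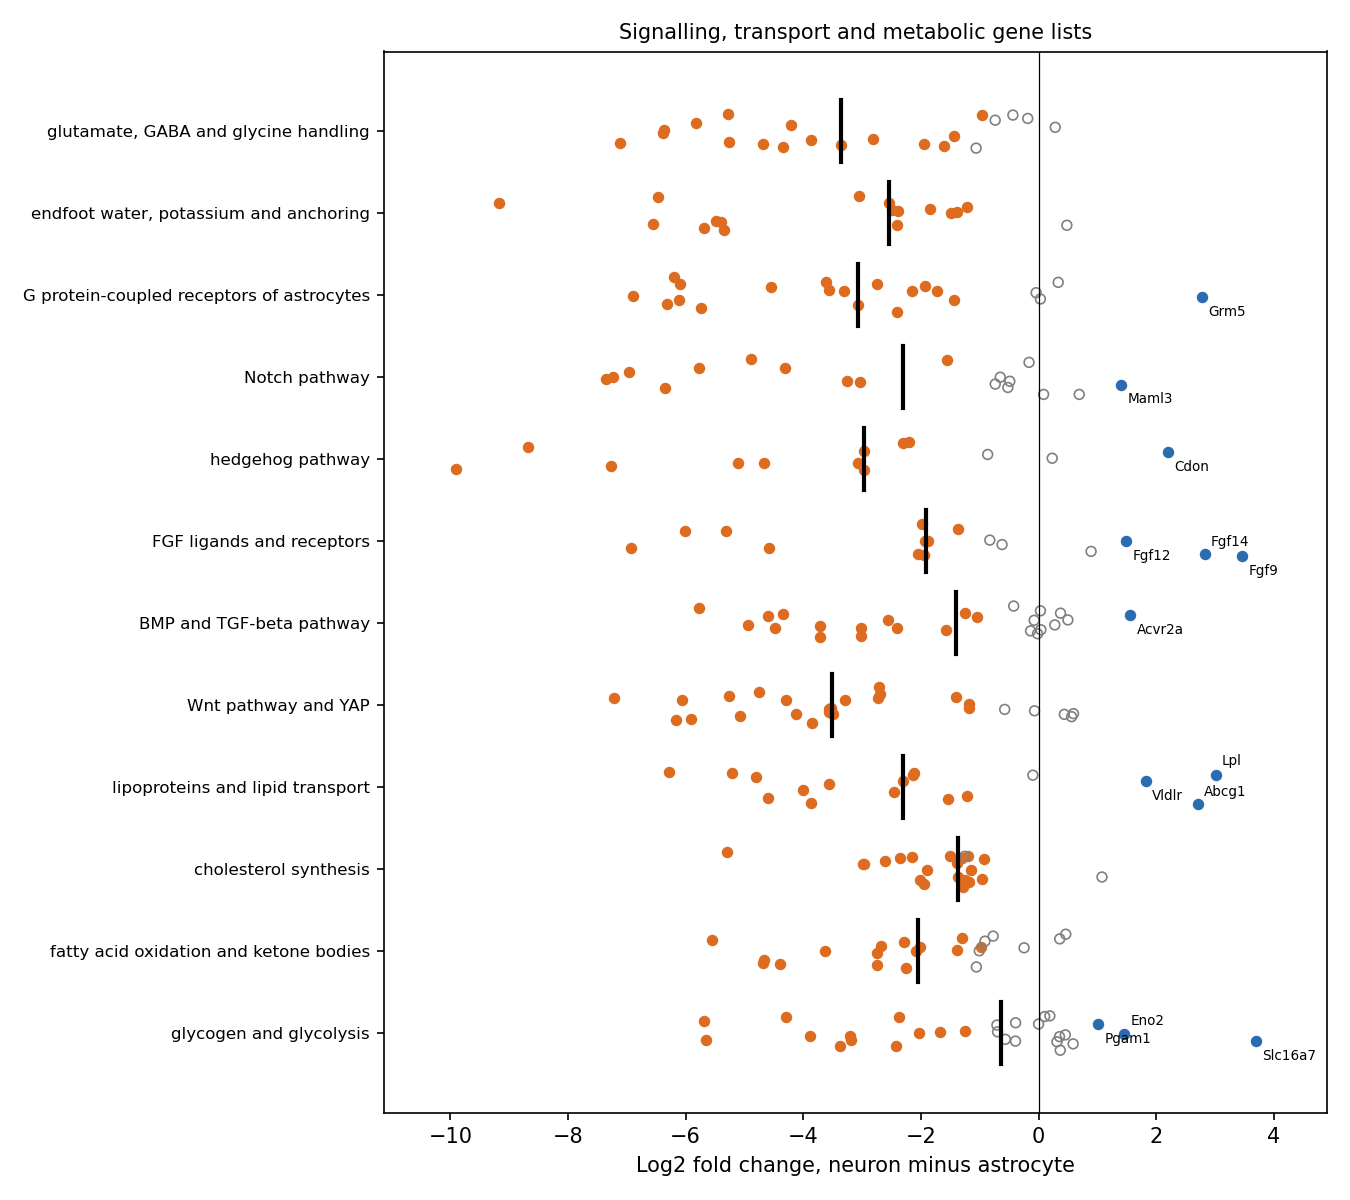
Log2 fold changes, neuron minus astrocyte, of the tested members of 12 gene lists of signalling, transport and metabolism. Each dot is 1 gene, filled where it passed and open where it did not, and the vertical bar is the list's median. The medians lie below 0 in all 12 lists, and the members named are the ones that passed toward neurons.

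Of 19 tested transcription factors known from astrocytes and neural progenitors, 15 were higher in astrocytes (median -3.40). Rfx4 stood at 317, 218, 192 and 205 CPM in the astrocyte libraries and 8.81, 6.63, 5.90 and 7.78 CPM in the neuron libraries (-5.00 ± 0.33, adjusted p = 1.08e-08). Sox2 (-4.91 ± 0.54), Sox9 (-4.49 ± 0.39), Sox21 (-4.19 ± 0.78), Dbx2 (-5.85 ± 0.59), Glis3 (-3.40 ± 0.46) and Klf15 (-3.14 ± 0.44) were higher as well. The nuclear factor I genes divided: Nfia was higher in astrocytes (-1.14 ± 0.28), whereas Nfib did not pass, at 471 ± 35 CPM in neurons against 504 ± 86.8 CPM in astrocytes. Glial RNA-binding proteins were higher in astrocytes in 5 of 10 cases (median -1.20): Zfp36l1 (-5.52 ± 0.41), Zfp36l2 (-4.66 ± 0.60), the musashi genes Msi1 (-4.10 ± 0.59) and Msi2 (-2.10 ± 0.32), and Qk, the quaking gene, at 869, 877, 730.1 and 603 CPM in the astrocyte libraries and 66.7, 69.2, 57.8 and 85.6 CPM in the neuron libraries (-3.46 ± 0.28, adjusted p = 5.57e-08). Tia1 did not pass, at 396 ± 49.4 CPM in neurons against 292 ± 66.0 CPM in astrocytes. Glis3 stood at a log2 fold change of -4.15 and Sox21 at -5.64 without neuron replicate 4, and Sox21 at -3.57 without astrocyte replicate 32.

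Genes of cholesterol synthesis and of lipid transport were higher in astrocytes in most cases. All but 2 of 22 cholesterol synthesis genes were higher (median -1.38). Srebf1, a regulator of lipid synthesis, stood at 742, 692, 425 and 968 CPM in the astrocyte libraries and 38.7, 11.8, 18.9 and 3.33 CPM in the neuron libraries (-5.29 ± 0.54, adjusted p = 7.07e-07). The late enzymes Dhcr7 (-2.98 ± 0.36, adjusted p = 4.1e-06) and Hsd17b7 (-2.16 ± 0.29) came next by adjusted p. Ebp did not pass, at 29.6 ± 10 CPM in neurons against 12.6 ± 7.08 CPM in astrocytes. Of 17 lipid transport genes, 13 were higher in astrocytes and 3 in neurons (median -2.31). Apoe stood at 4502, 8895, 6279 and 15631 CPM in the astrocyte libraries and 326, 257, 138 and 232 CPM in the neuron libraries (-5.21 ± 0.43, adjusted p = 6.88e-08), Clu was at -4.0 ± 0.38, the receptor Lrp4 at -4.81 ± 0.40 and the cholesterol exporter Abca1 at -3.57 ± 0.30. A second exporter, Abcg1, stood at 151, 58.2, 63.7 and 57.4 CPM in the neuron libraries and 12.0, 16.3, 0 and 12.4 CPM in the astrocyte libraries (2.71 ± 0.44, adjusted p = 8.43e-05), on the neuron side with the lipoprotein receptor Vldlr (1.82 ± 0.35) and the lipase Lpl (3.01 ± 0.62). Scarb1 did not pass, at 10.2 ± 5.60 CPM in neurons against 8.90 ± 6.98 CPM in astrocytes. Ebp passed without neuron replicate 4 or astrocyte replicate 8 (adjusted p = 0.0291 to 0.0471). Lpl stood at a log2 fold change of 3.76 without astrocyte replicate 32, and Srebf1 at -5.97 without neuron replicate 2.

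Energy metabolism differed by pathway. Fatty acid oxidation and ketone body genes were higher in astrocytes in 15 of 22 cases (median -2.05), including Cpt1a, which admits fatty acids to mitochondria (101, 186, 146 and 187 CPM in the astrocyte libraries and 1.15, 10.7, 3.14 and 8.89 CPM in the neuron libraries, -4.68 ± 0.50, adjusted p = 1.05e-06), Acsl3 (-3.63 ± 0.32) and the nuclear receptor Ppara (-5.55 ± 0.67). Hadhb did not pass, at 59.2 ± 29.3 CPM in neurons against 101 ± 13.8 CPM in astrocytes. Of 28 genes of glycogen and glycolysis, 12 were higher in astrocytes, 3 in neurons and 13 did not pass (median -0.63). On the astrocyte side stood genes of glycogen turnover: the phosphorylase kinase subunits Phkg1 (220.2, 119, 139 and 137 CPM in the astrocyte libraries and 3.83, 1.47, 2.36 and 4.07 CPM in the neuron libraries, -5.70 ± 0.40, adjusted p = 1.63e-08) and Phka1 (-3.89 ± 0.33), the phosphorylases Pygm (-3.38 ± 0.39) and Pygb (-2.37 ± 0.30) and glycogen synthase Gys1 (-2.03 ± 0.36). Pfkfb3, an activator of glycolysis, was there too (-3.18 ± 0.30). Common glycolytic enzymes such as Aldoa (333 ± 39.2 CPM in neurons against 243 ± 68.8 CPM in astrocytes), Gapdh (158 ± 27 CPM in neurons against 102 ± 47.9 CPM in astrocytes) and Pkm (162 ± 68.8 CPM in neurons against 139.6 ± 18.9 CPM in astrocytes) did not pass. The lactate and pyruvate transporters were on opposite sides: Slc16a1 was higher in astrocytes (-1.68 ± 0.35) and Slc16a7 in neurons, at 20.3, 23.9, 55.8 and 54.1 CPM in the neuron libraries and 3.35, 1.71, 0 and 4.01 CPM in the astrocyte libraries (3.69 ± 0.52, adjusted p = 2.01e-05). Eno2 (1.46 ± 0.31) and Pgam1 (1.02 ± 0.33) were the other 2 on the neuron side. Pgam1 did not pass without neuron replicate 26 or astrocyte replicate 6 (adjusted p = 0.0520 to 0.0550). Hadhb passed without neuron replicate 28 (adjusted p = 0.0277). Gapdh passed without astrocyte replicate 8 (adjusted p = 0.0397). Ppara stood at a log2 fold change of -6.57 without neuron replicate 2.

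Detoxification and metal handling genes were higher in astrocytes in 15 of 25 cases and lower in none (median -1.54). The cytochromes Cyp4f15 (121, 209, 139 and 183 CPM in the astrocyte libraries and 1.92, 0.368, 1.18 and 0.741 CPM in the neuron libraries, -7.23 ± 0.45, adjusted p = 5.51e-09) and Cyp2d22 (-5.98 ± 0.43) and the peroxiredoxin Prdx6 (-3.40 ± 0.33) led, and the metallothioneins Mt1 (-2.54 ± 0.44) and Mt2 (-3.37 ± 0.52) and the extracellular dismutase Sod3 (-7.03 ± 0.75) were among them. Members of the cytochrome families share sequence, so their counts are less certain. Fth1 did not pass, at 161 ± 48.7 CPM in neurons against 137 ± 69.6 CPM in astrocytes. Of 11 aldehyde dehydrogenases, 7 were higher in astrocytes and 2 in neurons (median -1.43). The driver Aldh1l1, of cytosolic folate metabolism, and its mitochondrial relative Aldh1l2 lay on opposite sides. Aldh1l2 stood at 44.8, 38.7, 45.6 and 55.6 CPM in the neuron libraries and 3.83, 7.28, 6.64 and 3.65 CPM in the astrocyte libraries (3.20 ± 0.39, adjusted p = 4.96e-06), with no overlap of the groups. Aldh18a1, of proline synthesis, was on the neuron side (1.87 ± 0.45) and Aldh7a1 on the astrocyte side (-2.66 ± 0.44), and Aldh5a1 did not pass, at 55.4 ± 8.20 CPM in neurons against 89.4 ± 21.6 CPM in astrocytes. Aldh5a1 passed without astrocyte replicate 30 (adjusted p = 0.0265). Mt2 stood at a log2 fold change of -2.69 without astrocyte replicate 8, Sod3 at -8.28 without neuron replicate 2, and Sod3 at -6.23 without astrocyte replicate 32.

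Secreted and matrix genes of astrocytes were higher in astrocytes in 23 of 25 cases and higher in neurons in 2, Tnr (59.8, 79.2, 55.0 and 60.7 CPM in the neuron libraries and 14.8, 13.7, 19.9 and 5.10 CPM in the astrocyte libraries, 2.44 ± 0.39) and Sema3a (median -4.72). Tnc, or tenascin C, stood at 311, 227, 558 and 418 CPM in the astrocyte libraries and 2.30, 3.68, 3.14 and 5.19 CPM in the neuron libraries (-6.67 ± 0.41, adjusted p = 5.51e-09), in contrast to its relative Tnr. The glypicans Gpc5 (-6.21 ± 0.52), Gpc6 (-3.94 ± 0.32) and Gpc4 (-1.67 ± 0.42), the thrombospondins Thbs4 (-5.70 ± 0.59), Thbs2 (-3.91 ± 0.55) and Thbs3 (-2.56 ± 0.51), and the phagocytic receptors Megf10 (-5.12 ± 0.32, adjusted p = 5.51e-09) and Mertk (-6.89 ± 0.45) were on the astrocyte side. All 9 tested gliosis genes were higher there (median -4.04), including Vcam1 (108, 302, 146 and 280.4 CPM in the astrocyte libraries and 2.68, 1.10, 3.14 and 1.85 CPM in the neuron libraries, -6.57 ± 0.47), Osmr (-6.13 ± 0.66) and Gfap (194, 149.98, 159 and 249.8 CPM in the astrocyte libraries and 12.3, 10.3, 5.50 and 16.7 CPM in the neuron libraries, -4.08 ± 0.37), and Lcn2, Steap4, Timp1, Hspb1, Cxcl10 and Nes were below the filter on low counts. Of 10 Bergmann glia markers, 8 were higher in astrocytes (median -3.06), such as Gdf10 (-6.17 ± 0.55), A2m (-6.09 ± 0.48) and Ptprz1 (-5.41 ± 0.33), and Npy2r in neurons (1.89 ± 0.48). Gria4 did not pass, at 429.7 ± 101 CPM in neurons against 435 ± 42.7 CPM in astrocytes. Gdf10 stood at a log2 fold change of -7.40 without neuron replicate 2, Osmr at -7.50 and Thbs2 at -4.66 without neuron replicate 28, and Thbs4 at -6.58 without neuron replicate 4.

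Markers of other cell types were present in both sorted groups, and several were higher in the astrocyte libraries. Oligodendrocyte markers did not pass in 13 of 17 cases (median -0.53), Mbp among them at 1200.3 ± 156 CPM in neurons against 1231 ± 269 CPM in astrocytes, and 4 were higher in astrocytes, Trf (-2.69 ± 0.32), Gpr37 (-3.51 ± 0.41), Aspa (-2.30 ± 0.49) and Mobp (-1.05 ± 0.36). Summed over the list they took 1404 to 1796 CPM in neuron libraries, 1630.0 to 2418 in astrocyte libraries and 5352 to 8836 in presort libraries. Of 9 oligodendrocyte precursor markers, 6 were higher in astrocytes, such as Sox6 (-4.10 ± 0.36), Vcan (-2.71 ± 0.35) and Olig1 (-2.91 ± 0.42), 1, Tnr, was higher in neurons, and Gpr17 did not pass, at 5.89 ± 2.76 CPM in neurons against 4.68 ± 2.09 CPM in astrocytes. Of 17 microglia markers 5 were tested and 2 were higher in astrocytes, Sall1 (-4.19 ± 0.48) being 1 of them. Csf1r did not pass, at 14.7 ± 8.34 CPM in neurons against 9.98 ± 8.04 CPM in astrocytes, and the list's sum was 43.7 to 75.5 CPM in neurons and 115 to 142 in astrocytes. All 5 tested blood markers did not pass, Hbb-bs being at 15.8 ± 10.3 CPM in neurons against 19.9 ± 11.4 CPM in astrocytes. Mobp did not pass without neuron replicate 2 or 28 or astrocyte replicate 8 or 32 (adjusted p = 0.0585 to 0.0994).

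Most tested markers of vessels and of the choroid plexus were higher in astrocyte nuclei. Of 6 endothelial markers tested, 4 were higher in astrocytes, Mfsd2a (74.2, 202, 86.3 and 139 CPM in the astrocyte libraries and 1.92, 5.52, 0.393 and 0.370 CPM in the neuron libraries, -5.92 ± 0.60), Slc2a1 (-3.92 ± 0.47), Slco1a4 (-4.09 ± 0.69) and Cdh5 (a ratio of 36.1, 95% counting interval 11.9 to 179), whereas Pecam1 did not pass, at 5.73 ± 6.01 CPM in neurons against 15.9 ± 18.4 CPM in astrocytes, and 10 of the 16, Cldn5, Flt1 and Kdr among them, were below the filter on low counts. The summed endothelial level was 37.4 to 106 CPM in neuron libraries and 504.5 to 1027 CPM in astrocyte libraries, and the summed mural and fibroblast level 17.7 to 51.7 CPM and 418 to 643 CPM. In presort nuclei of the neuron and the astrocyte line the endothelial sum was 394 to 668 and 665.5 to 1542 CPM. The mural and fibroblast sum there was 394 to 864 and 713.6 to 1015 CPM. Both sums in sorted astrocytes thus lay within the range over presort libraries, and those in sorted neurons below it. Of 10 mural and fibroblast markers tested, 9 were higher in astrocytes, led by Pdgfrb (330.4, 299, 159 and 381 CPM in the astrocyte libraries and 3.07, 1.47, 0 and 2.96 CPM in the neuron libraries, -7.26 ± 0.54) and Col1a2 (-3.90 ± 0.51), with Col3a1 at 0 counts in neurons and at least 42.1-fold higher in astrocytes, and Tagln did not pass, at 4.52 ± 1.28 CPM in neurons against 5.35 ± 1.88 CPM in astrocytes. All 10 tested markers of ependyma and choroid plexus were higher in astrocytes (median -4.05), Enpp2 (-3.71 ± 0.36) and Kl (-4.40 ± 0.43) having low adjusted p-values and Folr1 3 counts in neurons against 420 in astrocytes (a ratio of 202, 95% counting interval 68.7 to 985). Their sum was 177 to 296 CPM in neuron libraries and 1515, 6517, 8403 and 9063 CPM in astrocyte replicates 6, 8, 30 and 32, of which Ttr took the larger part in replicates 8, 30 and 32 and the smaller part in replicate 6, against 810 to 2175 in presort libraries. Ccdc153, an ependymal marker, had 0 counts in all 8 sorted libraries. Of 6 tested tanycyte markers 4 were higher in astrocytes, such as Dio2 (333, 550.2, 292 and 595 CPM in the astrocyte libraries and 14.2, 15.5, 14.2 and 26.3 CPM in the neuron libraries, -4.67 ± 0.36), Lhx2 (-2.86 ± 0.51) and Vcan, and Col25a1 in neurons, and Crym did not pass, at 9.21 ± 4.74 CPM in neurons against 9.28 ± 7.17 CPM in astrocytes. These lists were higher on the astrocyte side, as were the lipid, matrix, BMP and Wnt genes above, and their part in those groups was not tested. Mfsd2a stood at a log2 fold change of -7.08 without neuron replicate 4, Slc2a1 at -4.52 without neuron replicate 2, and Slco1a4 at -5.26 without neuron replicate 28. Without neuron replicate 28, the ratio of Cdh5 was 80.7 (95% counting interval 14.0 to 3229). Without astrocyte replicate 30, Col3a1 was at least 25-fold higher. Without neuron replicate 2, Folr1 was at least 145-fold higher against 0 counts.

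**Figure D5:**
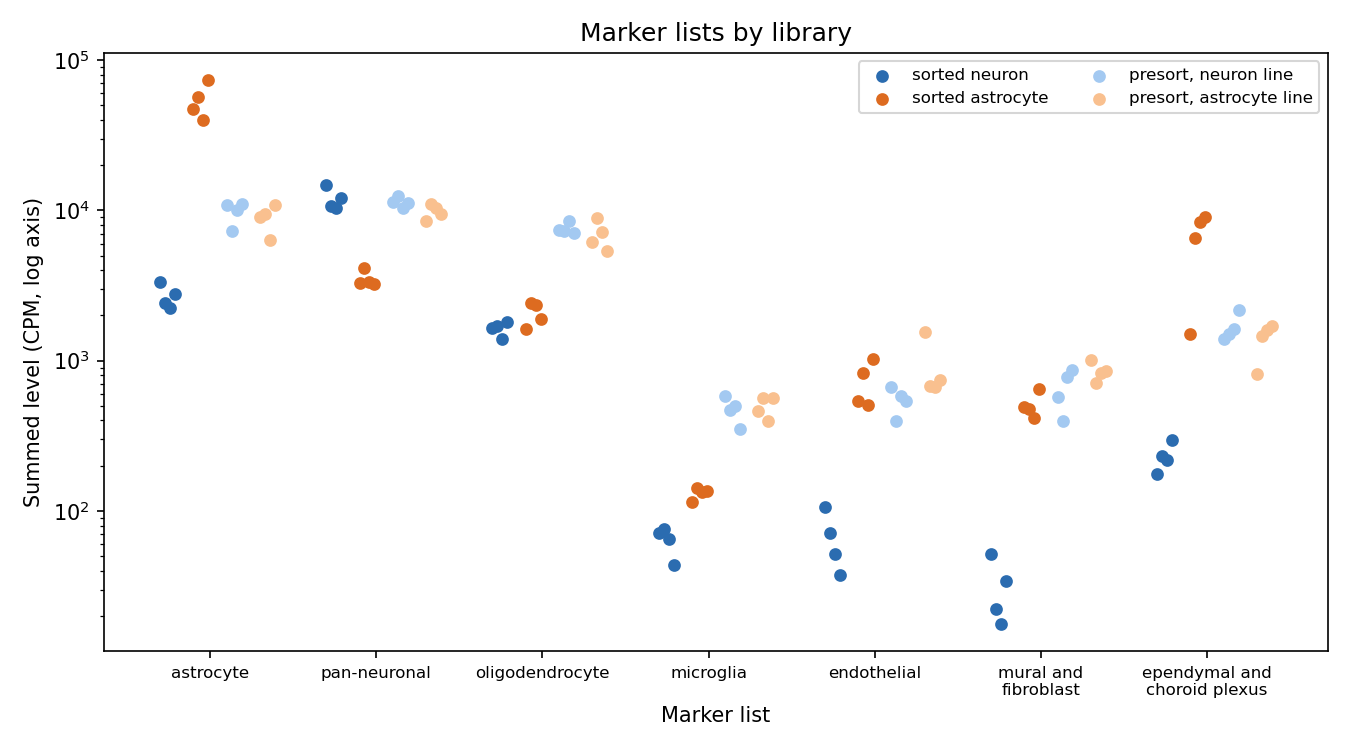
Summed level of 7 marker lists in each library, in CPM on a log axis. Sorted neuron libraries are blue, sorted astrocyte libraries orange, and presort libraries of the neuron line and the astrocyte line are light blue and light orange. Ependymal and choroid plexus markers are above every neuron library in each sorted astrocyte library, lowest in replicate 6.

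Gene families too large to name in full also lay on both sides. Of 233 solute carrier genes, 88 were higher in astrocytes and 51 in neurons (median -0.46). Slc39a12, a zinc transporter (-6.50 ± 0.34, adjusted p = 2.31e-09), had the lowest adjusted p. On the neuron side were the sodium-calcium exchangers Slc8a3 (2.95 ± 0.31), Slc8a2 (4.40 ± 0.59) and Slc8a1 (2.86 ± 0.39) and the potassium-chloride cotransporter Slc12a5 (2.90 ± 0.36). Of 289 Zfp genes, 18 were higher in neurons and 32 in astrocytes (6.23% and 11.1%), with a median of 0.04, below the shares over all genes on both sides; the first count was 28 without neuron replicate 2 and the second 21 without astrocyte replicate 32. Zfp385b (3.06 ± 0.39) and Zfp804a (2.67 ± 0.47) were on the neuron side. Cadherins and nonclustered protocadherins were higher in neurons in 8 and in astrocytes in 11 of 28 cases. Cdh18 (335, 274, 562 and 617 CPM in the neuron libraries and 9.58, 23.1, 6.64 and 13.1 CPM in the astrocyte libraries, 4.92 ± 0.41, adjusted p = 7.56e-08) and Cdh7 (4.64 ± 0.49) had the lowest adjusted p-values toward neurons, and Cdh20 (233, 204, 146 and 256 CPM in the astrocyte libraries and 8.05, 13.6, 3.14 and 12.2 CPM in the neuron libraries, -4.51 ± 0.40, adjusted p = 1.51e-07) the lowest toward astrocytes. Collagens were higher in astrocytes in 12 of 21 cases, with Col9a3 (-6.81 ± 0.55) and Col11a2 (-4.53 ± 0.48) leading, and in neurons in 3: Col19a1 (a ratio of 20.1, 95% counting interval 6.64 to 99.2), Col12a1 (1.96 ± 0.41) and Col25a1 (1.55 ± 0.49). Clustered protocadherins, whose members share exons and near-identical sequence and are therefore uncertain, passed in 3 and 1 of 23 cases. Col25a1 did not pass without neuron replicate 4 or 28 or astrocyte replicate 32 (adjusted p = 0.0511 to 0.0946). Slc8a1 stood at a log2 fold change of 3.54 without astrocyte replicate 8, and Slc8a2 at 3.55 without neuron replicate 2. Without astrocyte replicate 32, the ratio of Col19a1 was 37.6 (95% counting interval 6.58 to 1504).

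Few housekeeping genes passed. None of 74 nuclear-encoded respiratory genes passed (median 0.36) and 2 of 35 proteasome genes did, Psmb4 (1.03 ± 0.38) and Psma7 (0.98 ± 0.37), toward neurons. Ribosomal protein genes, which have many near-identical pseudogenes, were higher in neurons in 11 of 79 cases (median 0.57), Rplp1 (1.31 ± 0.36), Rpl32 (1.22 ± 0.36) and Rps15 (1.06 ± 0.32) having the lowest adjusted p-values. That count was 7 without neuron replicate 28, and 4, 24, 7 and 6 without astrocyte replicates 6, 8, 30 and 32 in turn. None of 9 mitochondrially encoded genes passed (median 0.43). mt-Co1 stood at 121, 75.9, 846 and 870.5 CPM in the neuron libraries and 323, 239.5, 305 and 291 CPM in the astrocyte libraries, higher in the 2 female neuron libraries than in the 2 male ones. Psmb4 did not pass without neuron replicate 4, 26 or 28 or astrocyte replicate 6, 8, 30 or 32 (adjusted p = 0.0510 to 0.110). Psma7 did not pass without neuron replicate 4 or 28 or astrocyte replicate 6, 8, 30 or 32 (adjusted p = 0.0583 to 0.122).

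The share of genes higher in neurons was largest among the longest genes. In the shortest quintile of genes by span from start to end, up to 8428 bp, 13.9% were higher in neurons and 16.4% in astrocytes. The share toward neurons was lower in the next 2 quintiles, at 10.5% and 12.3%, and was 17.1% in the fourth. In the longest quintile, from 83707 bp, the shares were 29.9% and 23.8%. Of 198 tested genes spanning at least 500000 bp, 108 (54.5%) were higher in neurons and 32 (16.2%) in astrocytes (median 1.16). By exonic length the share toward neurons went from 12.6% in the shortest quintile to 23.3% in the longest, and that toward astrocytes lay between 16.6% and 21.7% in all 5. The number of counts grew with length as well, from a median of 305 over the 8 libraries in the shortest quintile by span to 1051 in the longest, so longer genes were measured more precisely, and the part of depth in these shares was not tested. Very long genes on the astrocyte side, chosen after their values were seen, included Gpc5, Lama2 (-6.48 ± 0.36), a laminin, and Npas3 (-4.98 ± 0.41), a transcription factor.

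No gene passed between presort nuclei of the 2 lines. Of 5294 genes tested between 4 neuron-line and 4 astrocyte-line presort libraries, 0 (0%) passed by edgeR and 0 by DESeq2, and 198 had an unadjusted p under 0.05. Over the 1270 genes higher in sorted neurons that could be tested there, the median log2 difference was 0.04, against 1.74 for the same genes after sorting. Over 925 genes higher in sorted astrocytes it was -0.02, against -1.64 after sorting. Slc1a2 stood at 2189 ± 567 and 2323 ± 389 CPM in presort nuclei of the neuron line and the astrocyte line and Syt1 at 2136 ± 370.0 and 1834 ± 317 CPM. With 147826 to 306296 counts in 7 of the 8 presort libraries, the presort comparison is less deep than the sorted one, and the size of difference it could detect was not measured.

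Differences between neuron and astrocyte nuclei were also compared between the sexes. The interaction of sex and cell type passed in 0 of 12391 genes (0%) by edgeR, 1249 genes having an unadjusted p under 0.05, and in 3 genes by DESeq2. With 2 libraries per sex and type, and males and females under separate blocks of replicate numbers, sex and any difference in handling between those blocks cannot be told apart.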

How the data were processed

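Nuclear RNA was sequenced from sorted neuron and astrocyte nuclei, and the authors deposited raw counts per gene and library. The tools named are Trimmomatic, Bowtie2, STAR, bedtools and edgeR, per the submitters' processing notes. Extraction used Trizol and a DNase step, and RNA was amplified with a NuGEN kit (Ovation RNA-seq V2), per the labels' protocols. How nuclei were sorted, the genome build, the annotation, the counted regions and the strand setting: not given in the sources used here. The kit keeps no strand and adds no molecular identifiers, so intervals and floors cover counting error only.

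The 8 sorted libraries were fitted alone with edgeR 4.0.16 in R 4.3.3 (quasi-likelihood F test, two-sided, TMM factors, filterByExpr with a minimum count of 10). P-values were adjusted by the Benjamini-Hochberg method over all genes tested. The floor was 3 counts over a group, and counting intervals are exact with 95% confidence. Total counts were 134357 to 3239445 per sorted library. The test was run on simulated data first. Replicates are separate mice, per the series' design text, and 2 replicates of a group differed by a chi-square of at least 2.967 per degree of freedom, so no library was a copy of another.

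Symbols and coordinates came from GENCODE M21 (GRCm38), and promoter windows from RefSeq (GRCm38.p6). Genes were named by rule: the drivers; on each side the 12 largest changes of at least 10 CPM without overlap and the 8 highest levels with a log2 fold change of at least 2, leaving out unnamed gene models and near-identical families; and in each of 61 lists the 3 members of lowest adjusted p, the most abundant that did not pass and those against the list's direction, with further members by choice. Some genes that the rule names are not reported here. The comparison, the lists and the rule were chosen with earlier results of these data known. Alternatives were RLE factors, DESeq2 1.42.0, limma 3.58.1 (voom with quality weights), other filters, sex as a covariate, each sex alone, a fit with the oligodendrocyte libraries, a fold threshold and leaving out each library.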

Additional observations from a re-analysis of the deposited data

Results flagged for a closer look

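In 56 of 712 groups of 4 libraries (7.87%) looked at for the named genes, the marker sums and the library totals, 1 library lay far from the other 3 of its group. The cutoff used flags about 1 in 20 groups of normally distributed values, which CPM need not be. A group with 3 libraries at 0 and 1 above is always flagged, as in Folr1, Fxyd3, Gas1, Heyl, Myoc and Xkr7. The 7.87% is thus not to be read against 1 in 20. Neuron replicate 2 was that library in 26 groups, and no other library in more than 7. Values below are in CPM, with the range of the other 3 libraries in parentheses. Neuron replicate 2 was high in Abcg1 151 (57.4 to 63.7), Ank2 7826 (5019 to 5348), Boc 322 (102 to 134), Cdh15 73.6 (14.1 to 24.0), Dag1 351 (177 to 205), Eno2 468 (298 to 324) and Epha8 51.7 (6.67 to 13.4). It was high as well in Folr1 1.15 (0 in each), Gabbr1 879 (579 to 629), Gdf10 11.5 (1.57 to 1.85), Grin2c 392 (84.8 to 113), Hes5 2.30 (0 to 0.368), Heyl 0.383 (0 in each) and Iqsec1 272 (92.6 to 123). Further high values there were those of Kcnc1 1483 (368 to 418), Kcnt1 645 (205 to 243), Lfng 2.68 (0 to 0.393), Maml2 79.3 (53.7 to 57.1), Plxnb3 5.36 (0.393 to 1.11), Scn8a 2302 (1442 to 1569) and Slc17a7 857 (229 to 273). High there too were Slc7a10 7.66 (3.93 to 4.44) and Slc8a2 375 (70.3 to 111). It was low in Nrp1 8.81 (21.1 to 22.1), Scn3a 254 (294 to 299) and Slc1a2 410.0 (627 to 656).

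Astrocyte replicate 6 was high in Aldh1l1 365 (199.8 to 226), Dtna 1461 (783 to 833), Kcnt1 294 (113 to 134), Nfia 1049 (597 to 654) and Xkr7 0.479 (0 in each). It was low in Cck 21.1 (53.2 to 59.7) and Gjb2 27.8 (60 to 66.4). Neuron replicate 26 was high in Col11a2 3.14 (0.741 to 1.15), Fxyd3 0.393 (0 in each), Gas1 0.393 (0 in each) and Nrarp 1.57 (0.368 to 0.383). It was low in Itpr1 208 (330.0 to 353) and Wwtr1 1.57 (2.95 to 3.07). Astrocyte replicate 30 was high in Crym 19.9 (4.79 to 7.29), Sema3e 13.3 (1.71 to 2.39) and Tap1 53.1 (17.1 to 23.0). It was low in Jag1 0 (29.9 to 34.5) and Slc1a6 0 (3.86 to 4.31). That library held only 134357 counts, so its values for these genes rest on few counts or none. Astrocyte replicate 32 was high in Atp1b2 7273 (2569.7 to 2991), Cacna2d2 229.7 (113 to 133), Gpr37 80.6 (39.7 to 42.4) and Slc6a9 2434 (787 to 992). Neuron replicate 4 was high in Glis3 20.3 (4.60 to 6.68), Hey2 4.05 (0.370 to 0.786) and Myoc 0.368 (0 in each). It was low in Phka1 31.3 (44.0 to 44.8). Astrocyte replicate 8 was high in Myt1l 68.1 (43.1 to 46.5). It was low in Kif21b 36.9 (78.8 to 86.3). Neuron replicate 28 was high in Dio2 26.3 (14.2 to 15.5) and Kl 5.56 (2.58 to 2.75).

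In 3 genes the difference between neurons and astrocytes differed between the sexes by DESeq2 and not by edgeR. The value given is the male minus the female log2 difference. Shroom3 differed by 4.33 (DESeq2, adjusted p = 0.0232; by edgeR, adjusted p = 0.383), with 13.0, 20.3, 3.14 and 1.11 CPM in the neuron libraries and 32.6, 23.1, 73.0 and 65.3 CPM in the astrocyte libraries. mt-Co1 differed by -3.0 (DESeq2, adjusted p = 0.000148; by edgeR, adjusted p = 0.354), with 121, 75.9, 846 and 870.5 CPM in the neuron libraries and 323, 239.5, 305 and 291 CPM in the astrocyte libraries. Trp53i11 differed by 3.98 (DESeq2, adjusted p = 0.00726; by edgeR, adjusted p = 0.354), with 108, 51.9, 25.2 and 16.3 CPM in the neuron libraries and 11.5, 15.4, 39.8 and 61.6 CPM in the astrocyte libraries. With 2 libraries per sex and cell type, sex and other differences between the 2 blocks of animals cannot be told apart.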

How the results depend on the processing

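No paired analysis was possible because the groups compared share no replicate numbers. Counts of genes higher in neurons and in astrocytes, 2080 and 2459, were 2329 and 2351 with RLE factors, 2467 and 2710 by DESeq2, 2248 and 2762 by limma, 2637 and 3089 with no filter, 2053 and 2489 with sex as a covariate, and 1900 and 2319 when a log2 fold change beyond 1 was also required. Males alone gave 1506 and 1820, and females alone 2515 and 2311. When 1 library was left out they ranged from 1849 to 2279 and from 2134 to 2923, the lowest both without astrocyte replicate 32 and the highest both without neuron replicate 2. The stricter filter gave 1394 and 1267 of 7036 genes tested. The fit that also held oligodendrocyte libraries gave 1045 and 1489, and the cause was not tested. In each alternative, between 53.5% and 97.9% of the 4539 calls passed in the same direction, and 0 passed in the opposite direction. A called gene that an alternative left untested counts here as not passing. The share kept was 54.7% under the stricter filter, with its 7036 genes tested. The median log2 fold change over all genes tested lay between -0.04 and 0.21, the highest in females alone. With RLE factors it was 0.12, a shift of the scale against which small differences toward neurons are to be read.

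Of 309 named genes that passed, 264 passed in the same direction under every alternative in which they could be tested. Over 5432 pairs of gene and alternative, 150 no longer passed and 0 reversed: 41 of these were in the fit with oligodendrocyte libraries, 28 in males alone and 13 in females alone. The 41 were Acvr2a, Aldh18a1, Cacnb1, Cacng4, Cacng8, Calb1, Cdon, Col12a1, Col25a1, Dmd, Dusp6, Eno2, Etv5, Fgf1, Fgf12, Gpc4, Gria1, Grin2b, Homer3, Kcnn1, Kif21b, Maml3, Mobp, Npas2, Npy2r, Nrp1, Ntng2, P2ry1, Pgam1, Psma7, Psmb4, Rpl32, Rplp1, Rps15, Slc16a1, Slc18a2, Slc1a6, Slit3, Spry2, Tle4 and Vamp1. Of 839 pairs for the 47 named genes that did not pass, 36 passed. Of 65 counts of list members of at least 3, 21 stayed within 1.5 times under every alternative, and 75 of 1170 pairs did not.

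Between presort lines, 0 genes passed by edgeR and by DESeq2, and 0 when any 1 presort library was left out. With no filter on low counts 3 passed. The interaction of sex and cell type gave 0 genes by edgeR and 3 by DESeq2; the cause was not tested. Depth limits astrocyte replicate 30, with 134357 counts, where a gene of few CPM can be at 0, and 7 of the 8 presort libraries.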

Other observations

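Without a filter on low counts, 3 genes passed between presort nuclei of the 2 lines. Gh and Prl, which encode the pituitary hormones growth hormone and prolactin, had 118 and 105 counts in presort neuron-line replicate 27. Gh had 7 counts in neuron-line replicate 1, and both had 0 counts in the other presort libraries of the 2 lines (adjusted p = 0.0174 for Gh and 0.0349 for Prl, edgeR). Tle1, a corepressor, had 7, 1, 4 and 4 counts in neuron-line replicates 1, 3, 25 and 27 and 13, 20, 161 and 41 counts in astrocyte-line replicates 5, 7, 29 and 31 (adjusted p = 0.0174), and replicate 29 was the deepest presort library.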
